A study of Saccharomyces cerevisiae with 4 samples.

Results

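Vitamin B6 and thiamine synthesis in budding yeast (Saccharomyces cerevisiae) is represented here by 10 genes, taken by their systematic names from a table of 6207 gene rows: SNZ1 (YMR096W), SNO1 (YMR095C), SNZ2 (YNL333W), SNO2 (YNL334C), SNZ3 (YFL059W), SNO3 (YFL060C), THI4 (YGR144W), THI5 (YFL058W), THI11 (YJR156C) and THI13 (YDL244W). The study compared messenger RNA of cells lacking LOC1, which encodes a nuclear RNA-binding protein of large-subunit ribosome assembly and ASH1 mRNA localization, with that of wild-type cells on 4 microarrays of 2 colours. Each array held 1 knockout and 1 wild-type culture, and the 4 arrays were biological replicates, 2 labelled with the knockout in Cy5 (arrays 1 and 4) and 2 with the knockout in Cy3 (arrays 2 and 3). The knockout strain is PSY3262 and the wild-type strain PSY3259. On array 4 both channels carry the tag PSY3262, but the source description calls 1 of them wild type, which was followed. Both strains grew in YPD, a rich medium, at 30 °C in cultures of 50 mL to early log phase (optical density 0.2 to 0.4). Marker genotypes, and whether the knockout is 1 clone, were not found in the labels. A ratio gives no level in either channel, so the expression levels of the genes are unknown.

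Pyridoxal phosphate, the active form of vitamin B6, is the cofactor of aminotransferases and of many other enzymes of amino acid metabolism. Yeast makes it with an enzyme of paired subunits: Snz proteins form the ring of the cofactor, and Sno proteins are glutaminases that supply its nitrogen. Thiamine, vitamin B1, is joined from a thiazole, made by Thi4, and a pyrimidine, made by the near-identical proteins Thi5, Thi11, Thi12 and Thi13 from pyridoxal phosphate and histidine, and its pyrophosphate serves pyruvate decarboxylase and transketolase. SNZ1 and SNO1 are neighbours known to be induced as cells leave growth or run short of amino acids, whereas the SNZ2 and SNZ3 pairs lie beside THI genes and are known to respond to thiamine. THI4 and the THI5 family are repressed by external thiamine, which rich medium contains.

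The values are log ratios as the authors deposited them, in log units whose base is not stated. Folds are given "if base 10", the likely base, because the largest deposited values stop at exactly 2, which stands for a 100-fold ratio in base 10 but only a 4-fold one in base 2. The dye labels did not settle the direction of the ratios, since arrays of the same labelled orientation correlated at r = -0.773 (arrays 1 and 4) and r = -0.712 (arrays 2 and 3) across 6178 genes, which are not independent replicates. Arrays 2 and 4 were therefore turned so that LOC1 lies below 0 on every array, at -1.20, -0.972, -1.07 and -1.31 on arrays 1 to 4. LOC1 thus checks the size of the change and not its sign, and the direction is likely, not settled. Every value that follows is the knockout relative to wild type in this direction. In the opposite direction all rises would read as falls, and 5 members would be lower and 0 higher. LOC1, the deleted gene, would then read as higher in the knockout, by 13.7-fold if base 10. With 4 arrays, their number limits the precision, and signal over background is unknown.

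In the knockout the vitamin B6 genes SNZ1 and SNO1 were higher, by 2.43-fold and 1.82-fold if base 10, the other glutaminase genes SNO2 and SNO3 were higher by 1.29-fold and 1.36-fold, and THI4 was higher by 1.24-fold. The remaining 5 members, SNZ2, SNZ3, THI5, THI11 and THI13, did not pass the test. The test was limma's moderated fit of the mean ratio against 0 over 6205 genes, two-sided, with a Benjamini-Hochberg adjusted p under 0.05 as the threshold. All 10 members had a value on all 4 arrays and were tested, 5 rose and 0 fell. Over all genes tested 44.2% passed, 22.5% higher and 21.7% lower, so the members' share of calls, 50%, lay near that of all genes. The median of the members' mean log ratios was 0.102, and that of all genes tested was 0.0019. Between arrays the median of the members ran from 0.0428 on array 3 to 0.125 on array 4.

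**Figure D1:**
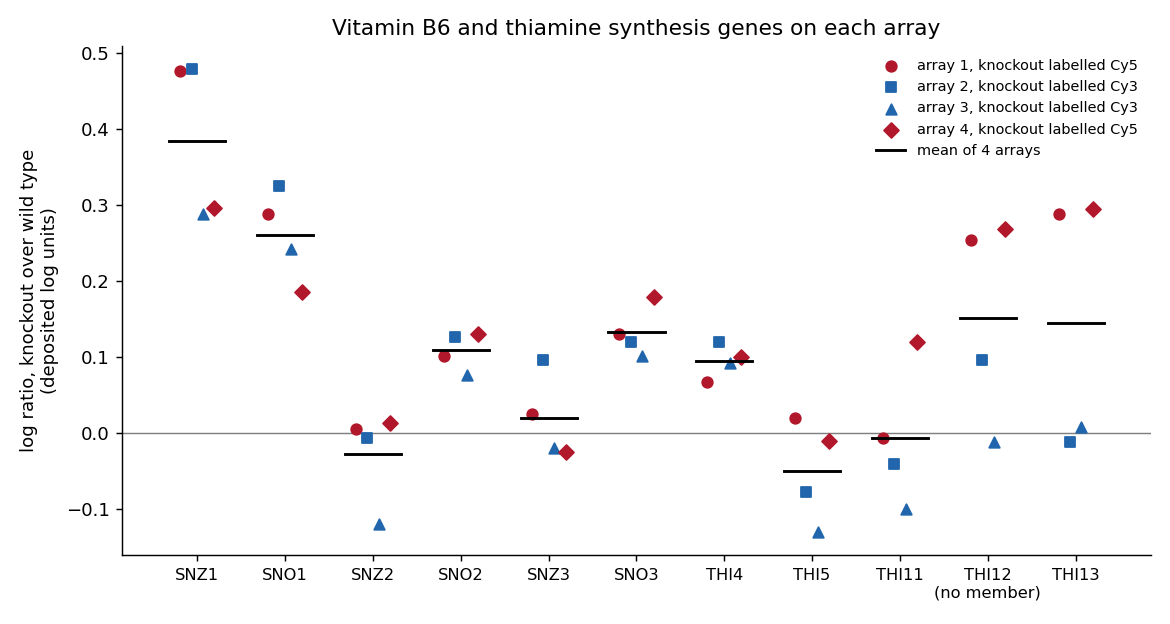
Log ratio of knockout over wild type, in deposited log units, of the 10 members and of THI12 on each of the 4 arrays, with a black bar at the mean of each gene. Red symbols are arrays labelled with the knockout in Cy5 and blue symbols arrays labelled with it in Cy3. SNZ1, SNO1, SNO2, SNO3 and THI4 lie above 0 on every array, and in the THI5 family the red symbols lie above the blue ones.

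SNZ1, a synthase subunit of the vitamin B6 enzyme, had log ratios of 0.477, 0.479, 0.289 and 0.296 on arrays 1 to 4. All 4 values lay above 0, and arrays 1 and 2 lay higher than arrays 3 and 4 without overlap, as did 30.2% of all genes with 4 values. Its mean was 0.385 ± 0.107 (SD, n = 4), or 2.43-fold if base 10 and 1.31-fold if base 2, with a limma adjusted p of 0.000286. SNZ1 stood at rank 28 from the highest mean of the 6205 genes tested, and its SD was larger than that of 92.9% of them. SNZ1 passed on arrays 1 and 2 alone (0.478), where 2 members and 19.1% of all genes did, and on arrays 3 and 4 alone (0.293), where 46.7% of all genes did.

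SNO1, the glutaminase subunit encoded beside SNZ1, had log ratios of 0.288, 0.325, 0.242 and 0.186 on arrays 1 to 4. Every array was above 0, and arrays 1 and 2 again lay above arrays 3 and 4. The mean was 0.260 ± 0.0597 (SD, n = 4), 1.82-fold if base 10, with a limma adjusted p of 0.000353. On each array SNZ1 exceeded SNO1, by a mean of 0.125 ± 0.0615 log units (SD, n = 4). In an exact two-sided sign-flip test over arrays this difference had p = 0.125, the smallest that 4 arrays can give, and 0.125 after adjustment over the 9 pairs compared.

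In the pairs near chromosome ends, the glutaminase genes passed the test and the synthase genes did not. SNO2, a glutaminase gene, had log ratios of 0.102, 0.127, 0.0771 and 0.130 on arrays 1 to 4. SNO3, its near-identical copy, had 0.131, 0.120, 0.102 and 0.179. Both genes lay above 0 on every array, as did 28.5% of all genes with 4 values, and their values overlapped. The mean of SNO2 was 0.109 ± 0.0246 (SD, n = 4, limma adjusted p = 0.00605). For SNO3 it was 0.133 ± 0.0329 (SD, n = 4, limma adjusted p = 0.00311). Both SDs were below the median SD over all genes, 0.0505. The call of each was lost on arrays 1 and 2 alone, where SNO2 was at 0.114 (limma adjusted p = 0.0686) and SNO3 at 0.125 (limma adjusted p = 0.0552).

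SNZ2, a synthase gene beside SNO2, had log ratios of 0.00504, -0.006, -0.120 and 0.0136 on arrays 1 to 4. Arrays 1, 2 and 4 were close to 0 and array 3 lay below them. Its mean was -0.0267 ± 0.0624 (SD, n = 4), with a 95% interval of limma from -0.0923 to 0.0388 and an adjusted p of 0.475. SNZ3, the near-identical copy beside SNO3, had 0.0259, 0.0967, -0.0199 and -0.0244. Arrays 1 and 2 lay above 0 and arrays 3 and 4 below it. The mean of SNZ3 was 0.0196 ± 0.0562 (SD, n = 4), with a 95% interval of limma from -0.0432 to 0.0823 and an adjusted p of 0.588. These intervals lie wholly below the mean of SNZ1.

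Within the pairs the order of the subunits differed. SNZ1 was above SNO1 on 4 of 4 arrays, whereas SNZ2 was below SNO2 on every array, with differences from -0.197 to -0.0971 log units, and SNZ3 was below SNO3 on every array. The mean differences were -0.136 for SNZ2 minus SNO2 and -0.114 for SNZ3 minus SNO3. SNZ1 exceeded SNZ2 by 0.412 ± 0.0924 and SNZ3 by 0.366 ± 0.0653 (SD, n = 4). SNO1 exceeded SNO2 by 0.151 ± 0.0648 and SNO3 by 0.127 ± 0.0846 (SD, n = 4), although on array 4 the difference from SNO3 was only 0.00721. Each of these differences had the same sign on 4 of 4 arrays, with an exact two-sided p of 0.125, the smallest possible, before and after adjustment over the 9 pairs. The sign-flip test therefore cannot reach 0.05 with 4 arrays. The rows of near-identical copies may share signal, since probe sequences were not used here.

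THI4, the thiazole synthase gene, had log ratios of 0.0672, 0.120, 0.0921 and 0.0998 on arrays 1 to 4. All 4 values were above 0 and close together, and 8.40% of all genes tested had a smaller SD. Its mean was 0.0949 ± 0.022 (SD, n = 4), 1.24-fold if base 10, with a limma adjusted p of 0.0101. On arrays 1 and 2 alone THI4 was at 0.0938 and did not pass (limma adjusted p = 0.112).

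The 3 members of the pyrimidine branch, THI5, THI11 and THI13, did not pass, and in each of them arrays 1 and 4 lay above arrays 2 and 3. THI13 had log ratios of 0.288, -0.0109, 0.0086 and 0.295 on arrays 1 to 4. Arrays 1 and 4, labelled with the knockout in Cy5, were high, and arrays 2 and 3, labelled with it in Cy3, were near 0. The mean was 0.145 ± 0.169 (SD, n = 4), with a limma adjusted p of 0.0658 and a larger SD than 98.1% of all genes. The call for THI13 turned on single arrays: the gene passed without replicate 2 (0.197, limma adjusted p = 0.024) and without replicate 3 (0.191, limma adjusted p = 0.046). It also passed on arrays 3 and 4 alone (0.152, limma adjusted p = 0.0378) and with labelled dye orientation as a term in the fit (limma adjusted p = 0.00331).

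THI5 had log ratios of 0.0203, -0.0773, -0.130 and -0.0105 on arrays 1 to 4, and THI11 had -0.00574, -0.0405, -0.0994 and 0.120. In both genes arrays 1 and 4 lay above arrays 2 and 3. The mean of THI5 was -0.0495 ± 0.0676 (SD, n = 4), with a 95% interval of limma from -0.118 to 0.0186 and an adjusted p of 0.205. THI11 had a mean of -0.00631 ± 0.0929 (SD, n = 4), with a 95% interval of limma from -0.0879 to 0.0753 and an adjusted p of 0.902. THI12, the fourth copy of the family and no member, had 0.254, 0.0966, -0.0114 and 0.268. Again arrays 1 and 4 were the high ones. THI12 passed at 0.152 ± 0.134 (SD, n = 4, limma adjusted p = 0.0288), but not without replicate 1 (0.118, limma adjusted p = 0.127) or without replicate 4 (0.113, limma adjusted p = 0.109). Nor did THI12 pass on arrays 1 and 2 alone (0.175, limma adjusted p = 0.0608) or on arrays 3 and 4 alone (0.128, limma adjusted p = 0.0661). THI13 was above THI5 by a mean of 0.195 log units and above THI11 by 0.151, each on 4 of 4 arrays, with an exact sign-flip p of 0.125.

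Set by labelled orientation, THI13 had a mean of 0.292 with the knockout labelled Cy5 and -0.00116 with it labelled Cy3, a difference of 0.293 log units. These labels did not match the signs of the deposited ratios, since arrays 1 and 4, labelled alike, correlated at r = -0.773. The split is therefore one of labels, and which dye held the knockout is not settled. For THI12 the difference was 0.219, for THI11 0.127 and for THI5 0.109. All 4 rows of the family had both Cy5 arrays above both Cy3 arrays, as did 12.8% of all genes with 4 values and 2 of the 6 vitamin B6 members. The orientation term itself, unlike the mean ratio in the same fit, was tested only after its values were seen. For THI13 that term had an unadjusted limma p of 0.00036 and an adjusted p of 0.203. By this limma fit 0 of 6192 genes passed after adjustment, and 220 (3.55%) had an unadjusted p under 0.05. The copies share most of their sequence, so the 4 rows are not independent, and the part of the dyes in these values was not tested. In contrast, SNZ1 differed between the orientations by 0.00249 log units and SNO1 by -0.0465.

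**Figure D2:**
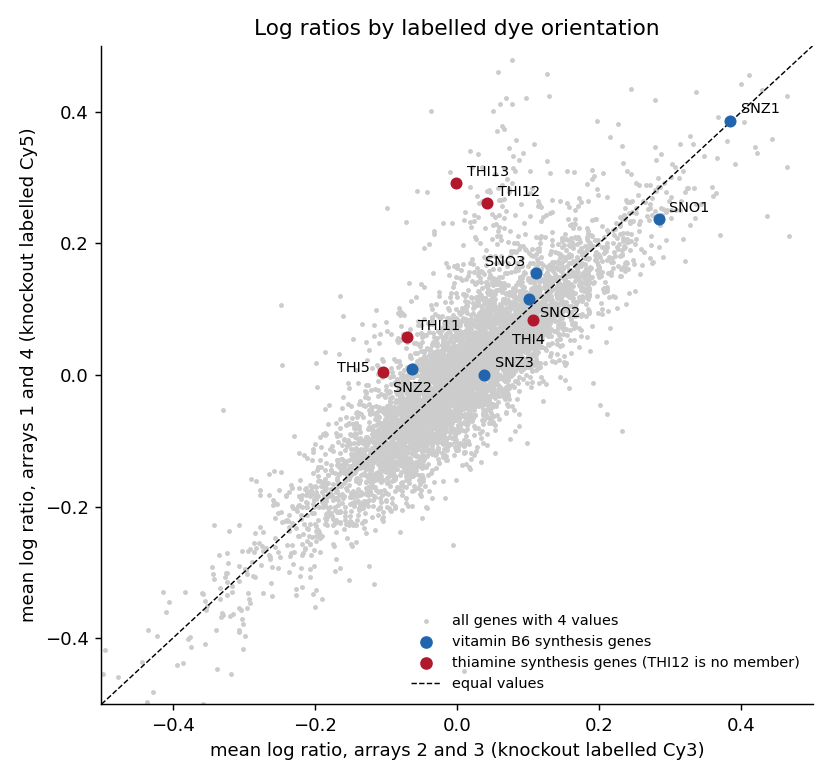
Mean log ratio of knockout over wild type on arrays 1 and 4, labelled with the knockout in Cy5, against that on arrays 2 and 3, labelled with it in Cy3, in deposited log units. Grey points are all genes with 4 values, cropped at a size of 0.5, and the dashed line marks equal values. THI13 and THI12 lie far above the line, THI11 and THI5 lie above it, and SNZ1 lies on it.

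Other genes of vitamin B6 use were read beside the synthesis genes. Of 5 such genes 3 rose and 0 fell (60% called, against 44.2% of all genes tested), with a median of 0.132. BUD16, a putative pyridoxal kinase gene, had 0.193 ± 0.0436 (SD, n = 4, limma adjusted p = 0.000832). YBL036C, whose bacterial relatives keep pyridoxal phosphate in balance, had 0.134 ± 0.0452, and PDX3, the oxidase that makes pyridoxal phosphate from its reduced precursors, had 0.132 ± 0.0707 (SD, n = 4). On array 1 PDX3 was at 0.0298, against 0.151 to 0.193 on the other arrays, and it did not pass on arrays 1 and 2 alone (0.111, limma adjusted p = 0.156). The genes that did not pass were TPN1, the pyridoxine transporter, at 0.0269 and BUD17, a second putative kinase, at -0.0272, both chosen after their values were seen.

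Among 16 other thiamine genes, which include THI12, 4 rose and 2 fell (37.5% called, against 44.2% of all genes tested), with a median of 0.0486. PHO3, a thiamine-repressed acid phosphatase gene, had -0.477, -0.384, -0.368 and -0.318 on arrays 1 to 4. All 4 values lay far below 0. PHO3 fell by 0.387 log units on average (SD 0.0663, n = 4, 2.44-fold lower if base 10, limma adjusted p = 7.63e-05). PET18, related to thiamine-degrading enzymes, had 0.288, 0.248, 0.299 and 0.251 and lay above 0 on every array, with a mean of 0.272 ± 0.0258 (SD, n = 4, limma adjusted p = 0.000108). The other called genes were named after their values were seen. TPC1, the mitochondrial carrier of thiamine pyrophosphate, rose by 0.145, and did not pass on arrays 1 and 2 alone (limma adjusted p = 0.0612). THI6, which joins the thiazole and the pyrimidine, rose by 0.0921, and did not pass without replicate 3 (0.0872, limma adjusted p = 0.0525) or on arrays 1 and 2 alone (0.0889, limma adjusted p = 0.113). THI7, the thiamine transporter, fell by 0.0911, and did not pass without replicate 3 (-0.0676, limma adjusted p = 0.177) or 4 (-0.0731, limma adjusted p = 0.152), on arrays 1 and 2 alone (-0.0287, limma adjusted p = 0.552) or with dye orientation as a term (limma adjusted p = 0.0605). The regulators THI2, THI3 and PDC2, also named after their values were seen, had means of 0.0437, -0.0257 and 0.0612 and did not pass.

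**Figure D3:**
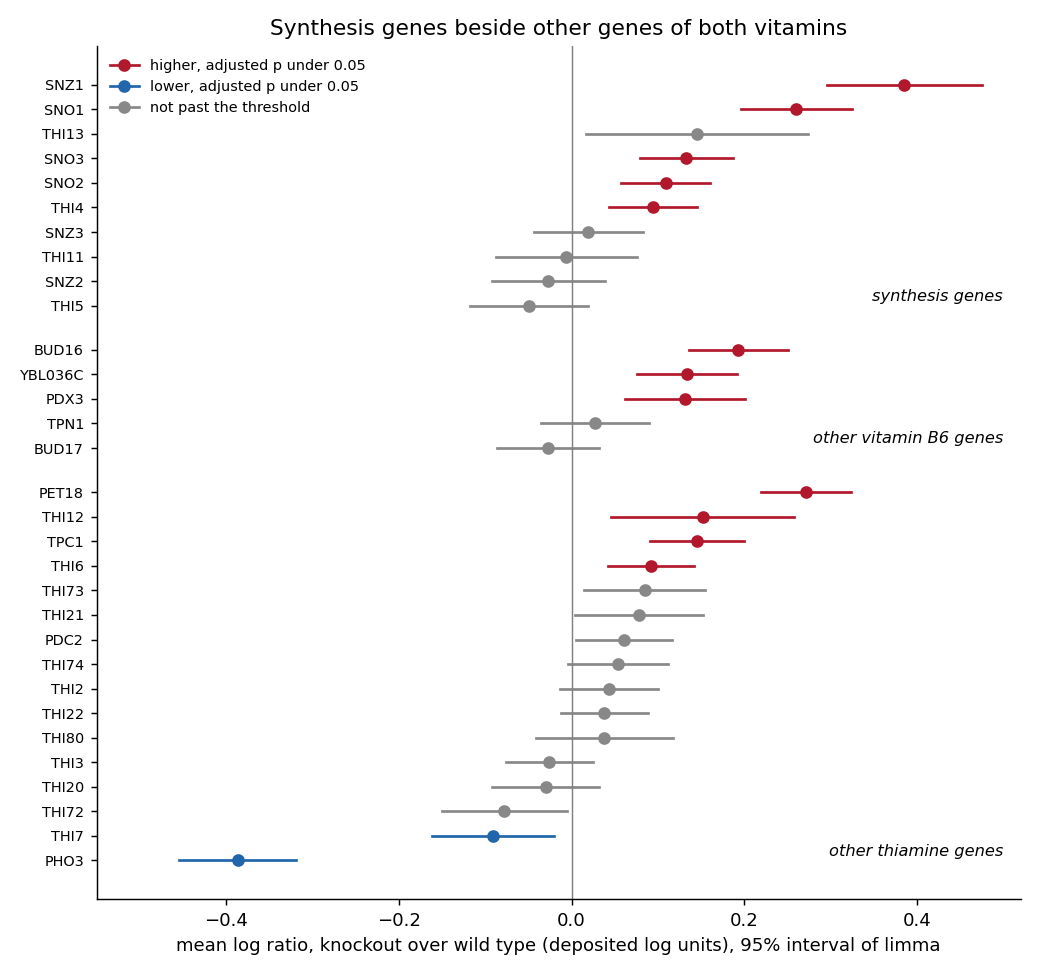
Mean log ratio of knockout over wild type in deposited log units, with the 95% interval of limma over 4 arrays, for the 10 members, 5 other vitamin B6 genes and 16 other thiamine genes. Red marks genes past the threshold and higher, blue those past it and lower, grey the rest. SNZ1 has the highest mean at 0.385 and PHO3 the lowest at -0.387.

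Genes of enzymes that use the cofactors moved in both directions, as did all genes tested, of which 22.5% rose and 21.7% fell (44.2% called). Of 10 genes of thiamine pyrophosphate enzymes 1 rose and 4 fell (50% called). The rise was that of ARO10, a decarboxylase of amino acid breakdown, at 0.298. Among the falls were the pyruvate decarboxylase genes PDC5 at -0.192 and PDC1 at -0.145. Of 31 genes of pyridoxal phosphate enzymes 8 rose and 12 fell (64.5% called), with a median of 0.0078. The largest changes there were rises, in the serine and threonine deaminase gene CHA1 at 0.863, the histidine synthesis gene HIS5 at 0.401 and the aromatic aminotransferase gene ARO9 at 0.316. A list of 12 genes held GCN4, the activator of amino acid synthesis genes, and its targets. It shares HIS5 and TRP5 with the enzyme list, and 6 of its genes rose and 1 fell (58.3% called). Its largest changes were those of HIS5, of LYS1, a lysine synthesis gene, at 0.306 ± 0.0102, and of GCN4 at 0.264 ± 0.0544 (SD, n = 4). Of 10 genes of late growth and stationary phase 3 rose and 2 fell (50% called). The rises were those of HSP12 at 1.17, SPI1 at 0.280 and CTT1, the cytosolic catalase gene, at 0.217. The fallen genes, named after their values were seen, were SSA3, a chaperone gene, at -0.152 and SPG4 at -0.0942. CTT1 did not pass on arrays 1 and 2 alone (0.107, limma adjusted p = 0.143), and SPG4 did not pass without replicate 1, 3 or 4 (-0.107, -0.0903 and -0.0651, limma adjusted p of 0.0554 to 0.125) or on arrays 1 and 2 alone (-0.0448, limma adjusted p = 0.353). The part of growth phase in the change of SNZ1 and SNO1 was not tested.

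In the RefSeq order of assembly R64, 7 members lie within the outermost 10 annotated genes of a chromosome, and of these 2 passed (SNO2 and SNO3). The other 3, SNZ1, SNO1 and THI4, lie farther from the ends, and all 3 passed. Over all genes tested 44.2% passed, these counts are small, and the difference between the sets was not tested. SNO2, SNZ2 and THI12 stand side by side on chromosome XIV, and SNO3, SNZ3 and THI5 on chromosome VI in the same order. On both, the run continues with an aryl-alcohol dehydrogenase gene on the side of the THI gene and with DDI2 or DDI3, cyanamide hydratase genes, on the side of the SNO gene. THI11 on chromosome X and THI13 on chromosome IV each have such a dehydrogenase gene on one side and a hexose transporter gene, HXT16 or HXT15, on the other.

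The dehydrogenase neighbours fell, whereas of the THI genes beside them THI12 rose, though not past the threshold in every setting, and THI5, THI11 and THI13 did not pass. AAD6 beside THI5 had -0.728, -0.679, -0.837 and -0.788 on arrays 1 to 4, and AAD10 beside THI11 had -0.397, -0.433, -0.521 and -0.520. On all 4 arrays both lay below every value of the THI gene beside them. AAD14 beside THI12 had a mean of -0.516 ± 0.118 and AAD4 beside THI13 one of -0.252 ± 0.0748 (SD, n = 4). All 7 measured dehydrogenase rows fell, the lowest being AAD6 at -0.758, YFL057C, which RefSeq joins with AAD6 as 1 pseudogene, at -0.712 and AAD15 at -0.583. This list was chosen with earlier results of these data known, and rows of 1 gene family may share signal.

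On the other side, DDI2 rose by 0.292 ± 0.114 and DDI3 by 0.241 ± 0.0675 (SD, n = 4), and COS1 and COS4, next outward and members of a subtelomeric family, rose by 0.149 and 0.135. HXT16 had 0.273, 0.0513, 0.0671 and 0.260 on arrays 1 to 4, and HXT15 had 0.261, 0.0872, 0.0307 and 0.188. Both showed the split of THI13 and THI12, with arrays 1 and 4 above arrays 2 and 3, and so did DDI2, COS1 and SOR1. The means of HXT16 and HXT15, 0.163 and 0.142, passed, but HXT16 did not pass without replicate 1 (0.126, limma adjusted p = 0.0752) or 4 (0.130, limma adjusted p = 0.0625), nor HXT15 without replicate 1 (0.102, limma adjusted p = 0.0715) or 4 (0.126, limma adjusted p = 0.0651). On arrays 1 and 2 alone neither passed, with HXT16 at 0.162 (limma adjusted p = 0.110) and HXT15 at 0.174 (limma adjusted p = 0.0697). Next outward, the sorbitol dehydrogenase gene SOR1 rose by 0.225 and its copy SOR2 had 0.054 and did not pass. YJR154W, beyond AAD10, fell by 0.386.

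Around the inner members, MTG1, a mitochondrial GTPase gene beside SNZ1, rose by 0.145 ± 0.0424 (SD, n = 4), while ATP25 beyond it had -0.0546 and did not pass. CTF13 beside SNO1, a kinetochore gene, rose by 0.0848, and UTP15 beyond it, of the small-subunit processome, by 0.111. Both calls were lost without replicate 1, at 0.066 for CTF13 (limma adjusted p = 0.121) and 0.0835 for UTP15 (limma adjusted p = 0.0735), and that of CTF13 also without replicate 2 (0.0743, limma adjusted p = 0.0842) or 3 (0.097, limma adjusted p = 0.0593). Beside THI4, ENP2, a small-subunit assembly gene, had 0.0958 and passed, though not without replicate 1, 2 or 3 (0.0817, 0.0847 and 0.0844, limma adjusted p of 0.0908 to 0.129). ECL1 beyond it fell by 0.235. Of 24 measured neighbours that are no members, THI12 included, 12 rose and 6 fell (75% called, against 44.2% of all genes tested). In 6 of them, again with THI12, arrays 1 and 4 both lay above arrays 2 and 3, as in 12.8% of all genes with 4 values. The neighbours include several dehydrogenase, DDI, COS, HXT and SOR genes, copies whose rows may share signal. Their counts are therefore not counts of independent genes. The neighbours AGP3, RPD3, SKN1 and YDL242W did not pass.

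**Figure D4:**
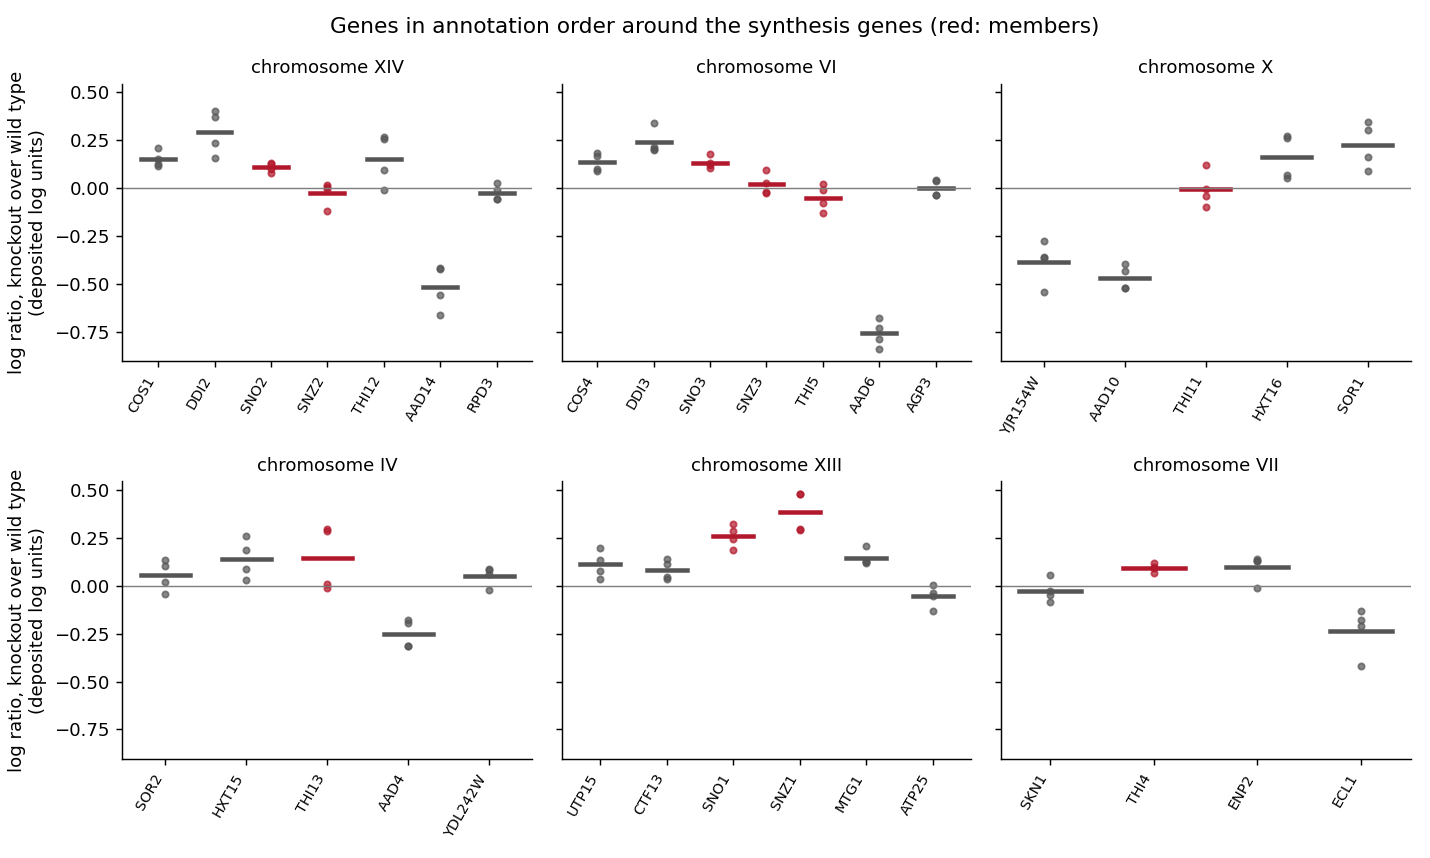
Log ratio of knockout over wild type in deposited log units for members (red) and their measured neighbours (grey) in annotation order, a panel for each of 6 chromosomes, with points for the 4 arrays and a bar at the mean. The dehydrogenase genes AAD14, AAD6, AAD10 and AAD4 lie below 0 next to THI genes that lie near or above 0.

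SNZ1, the member with the largest change, was compared by Euclidean distance over the 4 arrays with genes that are no members and have a symbol. This distance takes in the size of the ratios as well as their pattern. The nearest profile was that of MRT4, a large-subunit assembly gene, at 0.118 log units. RIB4, of riboflavin synthesis, followed at 0.141 and SDO1, of ribosome maturation, at 0.143. Their means were 0.340, 0.444 and 0.367. These genes were picked as the nearest, so their likeness to SNZ1 follows from the choice, and a link between them was not tested.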

How the data were processed

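Each sample was 1 two-colour array of a LOC1 knockout culture against a wild-type culture. RNA was isolated with hot phenol, copied from a poly-T primer and labelled with Klenow and random primers, per the labels' protocols. The authors deposited 1 log ratio per gene and array, taken here as log10 from the values alone. For the scanner, background correction, normalization, probes and build nothing is stated in the sources used here. Arrays held 6198 to 6207 gene values, and 3 control rows were left out. Columns were turned to place LOC1 below 0. Genes with at least 3 values were tested with limma 3.58.1 (lmFit, eBayes; R 4.3.3) and Benjamini-Hochberg adjustment over 6205 genes; the fit was tested on simulated data. Pairs of members were compared by exact sign flips over arrays. Names and gene order came from RefSeq R64 locus tags, which matched 5654 rows and all 10 members; no sequences were used here. Named genes were the members, THI12, neighbours within 2 genes, up to 3 leading genes of each list and the 3 profiles nearest to SNZ1; other genes are said to have been named after their values were seen. The members and lists were chosen with earlier results of these data known. Alternatives changed centring, scale, signs, dye term, filter, moderation and arrays.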

Additional observations from a re-analysis of the deposited data

Results flagged for a closer look

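In 4 of 65 named genes, 1 array stood apart from the other 3 by Dixon's 95% criterion for 4 values, where chance gives about 1 in 20. SNZ2 was at -0.120 on array 3 and between -0.006 and 0.0136 on the others. MTG1 was at 0.209 on array 1 and between 0.120 and 0.127 on the others. DDI3 was at 0.341 on array 1 and between 0.199 and 0.216 on the others. ENP2 was at -0.0133 on array 4 and between 0.129 and 0.138 on the others.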

How the results depend on the processing

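No further pairing was possible because each array already pairs 1 knockout culture with 1 wild-type culture. With signs from the dye labels, LOC1 lay below 0 on arrays 1 and 2 and above 0 on arrays 3 and 4. That setting thus opposed arrays 1 and 2 to arrays 3 and 4, so changes shared by all arrays largely cancelled in the mean. Signs taken from the dye labels moved most: 1 gene and 0 members passed (72 genes at an unadjusted p under 0.05), SNZ1 had 0.0927, SNO1 0.0459 and SNO2 0.00539, and signs reversed for SNZ2 (0.0263), SNO3 (-0.00766), THI4 (-0.00107), THI5 (0.021), THI13 (-0.00653), PET18 (-0.00329), TPC1 (-0.012), THI6 (-0.00319), THI7 (0.0624), PDX3 (-0.0204), PDC5 (0.00686), AAD6 (0.0546), YFL057C (0.114), AAD15 (0.0909), HSP12 (-0.137), SPI1 (-0.085), CTT1 (-0.110), SPG4 (0.0493), ATP25 (0.0387), DDI2 (-0.0263), AAD14 (0.0956), AAD10 (0.0529), HXT16 (-0.000885), AAD4 (0.0645), YDL242W (-0.0326), RPD3 (0.0327) and the differences SNZ2 minus SNO2 (0.0209), SNZ3 minus SNO3 (0.0494) and THI13 minus THI5 (-0.0275). On arrays 1 and 2 alone 1185 genes and 2 members passed, against 2743 and 5 on all arrays; SNO2 (0.114), SNO3 (0.125) and THI4 (0.0938) did not pass, and RPD3 reversed (0.00804). Arrays 3 and 4 alone gave 2891 genes, THI13 passed (0.152), and SNZ3 (-0.0221), THI11 (0.0105), SKN1 (0.00266) and SOR2 (-0.0113) reversed. With arrays scaled to one spread AGP3 reversed (-0.00066). THI13 passed with the dye term (0.145). Leaving out 1 replicate gave 2009 to 2598 genes and 5 to 6 members, SNZ2 between -0.0402 and 0.0042, SNZ3 between -0.00613 and 0.0342, THI11 between -0.0486 and 0.0247 and THI13 between 0.0953 and 0.197; AGP3 ranged from -0.0116 to 0.0157, below 0 without replicate 2 or 4 (-0.0101). SNZ1, SNO1, SNO2, SNO3 and THI4 passed without any 1 replicate. Of 845 recomputed log ratios of 65 named genes 735 kept their direction and side of the threshold; counts and pair differences are not among them. The cause was not tested.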
